A study of Arabidopsis thaliana with 16 samples.

Results

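Roots of an Arabidopsis thaliana line carrying an RNA interference construct against HRE1 were compared with wild type roots, both after 6 h at 3% oxygen. The comparison used 8 of the 16 one-colour Affymetrix arrays of the series, 4 labelled HRE1-RNAi hypoxia and 4 labelled wild type hypoxia, chosen by their titles. The other 8 arrays, 4 HRE1-RNAi and 4 wild type roots kept in normoxia for 6 h, entered the estimate of the spread and served as a second comparison of the lines on separate arrays. Every group was of the Columbia ecotype and came from seedlings 14 d old. The hypoxic roots were dipped in sucrose-containing solution in the dark while a mixture of oxygen and nitrogen was supplied. By their titles the arrays are biological replicates, and the p-values rest on the variation among them.

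The titles call the line HRE1-RNAi20, whereas the descriptions of the 4 hypoxic arrays call it RNAi21, RNAi22, RNAi23 and RNAi24 in turn. Which of the labels is right was not settled. The promoter of the construct is not given in the sources used here, and a line with a control construct was not analysed here. Neither gene table pairs a probe set with HRE1, so the level of the targeted gene, which would check the labels, could not be identified here. The probe sets with no gene in the tables, some of them described below, may include it.

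HRE1, also called AtERF73, encodes a transcription factor of the group VII ethylene response factors. In Arabidopsis these proteins stand at the centre of oxygen sensing: oxygen marks the constitutive members for degradation through their amino terminus, and in low oxygen they accumulate and switch on genes of fermentation and anaerobic metabolism. HRE1 is itself known as a gene induced by low oxygen. In roots, low oxygen limits respiration, and cells turn to ethanol and lactate fermentation for ATP.

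The deposited values are MAS5 intensities scaled to a common level, and differences are given as HRE1-RNAi minus wild type in log2(intensity + 16), with a standard error and 4 arrays per group. The added 16 understates differences between dim probe sets. Probe sets with an adjusted p under 0.05 are termed called (limma, Benjamini-Hochberg over 22746 probe sets, two-sided). In bulk roots, fewer cells of a type and less RNA per cell cannot be told apart. Of the cell type genes looked for, 4 of root hairs were measured. In HRE1-RNAi hypoxia EXPA18, GH9C1, EXPA7 and XTH26 read 248.9 to 665.9, 184.5 to 318.4, 79.4 to 248.5 and 34.4 to 78.1. In wild type hypoxia they read 221.8 to 332.6, 227 to 266.5, 116.9 to 202.4 and 5.4 to 60.5. Leaf transcripts were present too. The summed level of the 3 measured shoot and leaf genes lay between 1130 and 1653 in HRE1-RNAi hypoxia and between 1148 and 1250 in wild type hypoxia. The endodermis and stele markers were not paired with a probe set.

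Array number 4 of HRE1-RNAi hypoxia stood apart from the other 3. Its mean correlation with its own group was 0.961, against 0.970 to 0.972 for arrays 1 to 3, and its 25S rRNA signal was 10.8 on the log2 scale, against 13.8 to 14.3. Its 3' to 5' difference over control genes, a sign of RNA quality, was 1.35 log2, against 0.964 to 1.15. In normoxia the HRE1-RNAi array numbered 4 had the lowest 25S rRNA signal, 8.18, and a 3' to 5' difference of 1.32. Deviations of both HRE1-RNAi arrays numbered 4 from their group means correlated at 0.695. The descriptions give each of the 4 hypoxic arrays a different RNAi label, so whether array 4 is of another line was not settled. Between all HRE1-RNAi and wild type hypoxia arrays none of 8 array measures passed the test (exact permutation test over 70 arrangements, adjusted p = 0.971 for each, smallest possible unadjusted p = 0.029). After adjustment over 8 measures, 1 measure alone could not have passed even with the lines fully apart. The test therefore cannot show that the lines were alike in these measures. Differences of genes called only without both HRE1-RNAi arrays numbered 4 are given with and without them.

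After 6 h of hypoxia the lines differed in few transcripts. Of 22746 probe sets, 3 were called higher and 2 lower in HRE1-RNAi, 0.0132% and 0.00879% of those tested and together 0.022%. At an unadjusted p below 0.05 there were 1036, 4.55%, with 521 higher and 515 lower. Of the 5 called, 1 is paired with a single gene (AT5G15360), 1 with a cluster of germin-like protein genes, and 3 with no gene in the tables used.

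The largest called difference was in 263494_at, a probe set with no gene in the tables. Its intensities were 121.5, 93.3, 130.5 and 188.5 in HRE1-RNAi hypoxia, against 1788.2, 2190.9, 1751.9 and 1654.6 in wild type hypoxia. Every HRE1-RNAi array lay far below every wild type array. The difference was -3.67 ± 0.22 log2 (adjusted p = 1.3e-09, limma), 12.7-fold lower on this scale. The same held in normoxia, where the HRE1-RNAi arrays read 173.6, 139.2, 128.4 and 275.6 and the wild type arrays 2745.7, 3201.8, 2768.7 and 1762.6, a difference of -3.78 ± 0.22 log2. In wild type this probe set did not pass the test between hypoxia and normoxia (-0.48 ± 0.22, adjusted p = 0.149).

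The probe set 249490_s_at matches AT5G39180, AT5G39150, AT5G39120 and AT5G39110, neighbouring genes of germin-like proteins, a family of secreted cell wall glycoproteins; which of them gave the signal could not be told. It read 372.6, 333.2, 364.4 and 546 in HRE1-RNAi hypoxia and 146.7, 138.7, 156.4 and 122.1 in wild type hypoxia. The groups were well apart, and the probe set rose by 1.40 ± 0.19 log2 (adjusted p = 0.0020, limma). In normoxia both lines overlapped, at 197.3 to 298.8 in HRE1-RNAi and 171.5 to 292.5 in wild type, and differed by -0.01 ± 0.19 log2. The difference between the line effects in hypoxia and normoxia was 1.41 ± 0.26 log2 and missed the threshold (adjusted p = 0.107).

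AT5G15360, a protein-coding gene to which no role is given here, read 294.8, 290.1, 372.2 and 443.1 in HRE1-RNAi hypoxia. In wild type hypoxia it read 135.1, 163.4, 178.6 and 130.1. No arrays overlapped, and the gene rose by 1.11 ± 0.17 log2 (adjusted p = 0.0081, limma). It was also called higher in normoxia, at 431.5 to 473.3 in HRE1-RNAi against 140.6 to 221.2 in wild type, a difference of 1.29 ± 0.17 log2. The call in hypoxia was lost without HRE1-RNAi hypoxia array 3 (adjusted p = 0.070), without wild type hypoxia array 1 (0.072) or array 4 (0.068), and with only both hypoxia groups in the fit (0.107).

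The remaining higher call, 252827_at, read 1583.4, 1876.3, 2160.1 and 2626.7 in HRE1-RNAi hypoxia, against 1169.5, 1127.7, 1141.4 and 1159.9 in wild type hypoxia. Wild type arrays were tightly grouped and all lay below the HRE1-RNAi arrays, with a difference of 0.81 ± 0.13 log2 (adjusted p = 0.029, limma). In normoxia the order was the other way round without being called. There HRE1-RNAi arrays ranged from 2338.4 to 3037.4 and wild type arrays from 3362.4 to 3745.2, a difference of -0.46 ± 0.13 log2 (adjusted p = 0.662). The line effects in hypoxia and normoxia differed by 1.27 ± 0.19 log2 (adjusted p = 0.013), a call lost without HRE1-RNAi hypoxia array 3 (0.062) and without trend and robust moderation (0.053). In wild type 252827_at fell by 1.61 ± 0.13 log2 in hypoxia relative to normoxia.

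The other lower call, 256081_at, read 450, 345.6, 390.7 and 424.1 in HRE1-RNAi hypoxia, against 813.6, 573.1, 748.6 and 800 in wild type hypoxia. The groups did not overlap, and it fell by 0.83 ± 0.14 on the log2 scale (adjusted p = 0.030, limma). In wild type it was higher in hypoxia than in normoxia by 1.59 ± 0.14 log2, and in normoxia the lines differed by -0.20 ± 0.14. Both 252827_at and 256081_at lost their call in 9 of 18 alternative analyses, with adjusted p up to 0.264 and 0.254. The calls were lost with only both hypoxia groups in the fit, without trend and robust moderation, and in most fits that left out 1 array; only leaving out HRE1-RNAi array 1 kept that of 252827_at, and only leaving out wild type array 2 that of 256081_at.

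**Figure D1:**
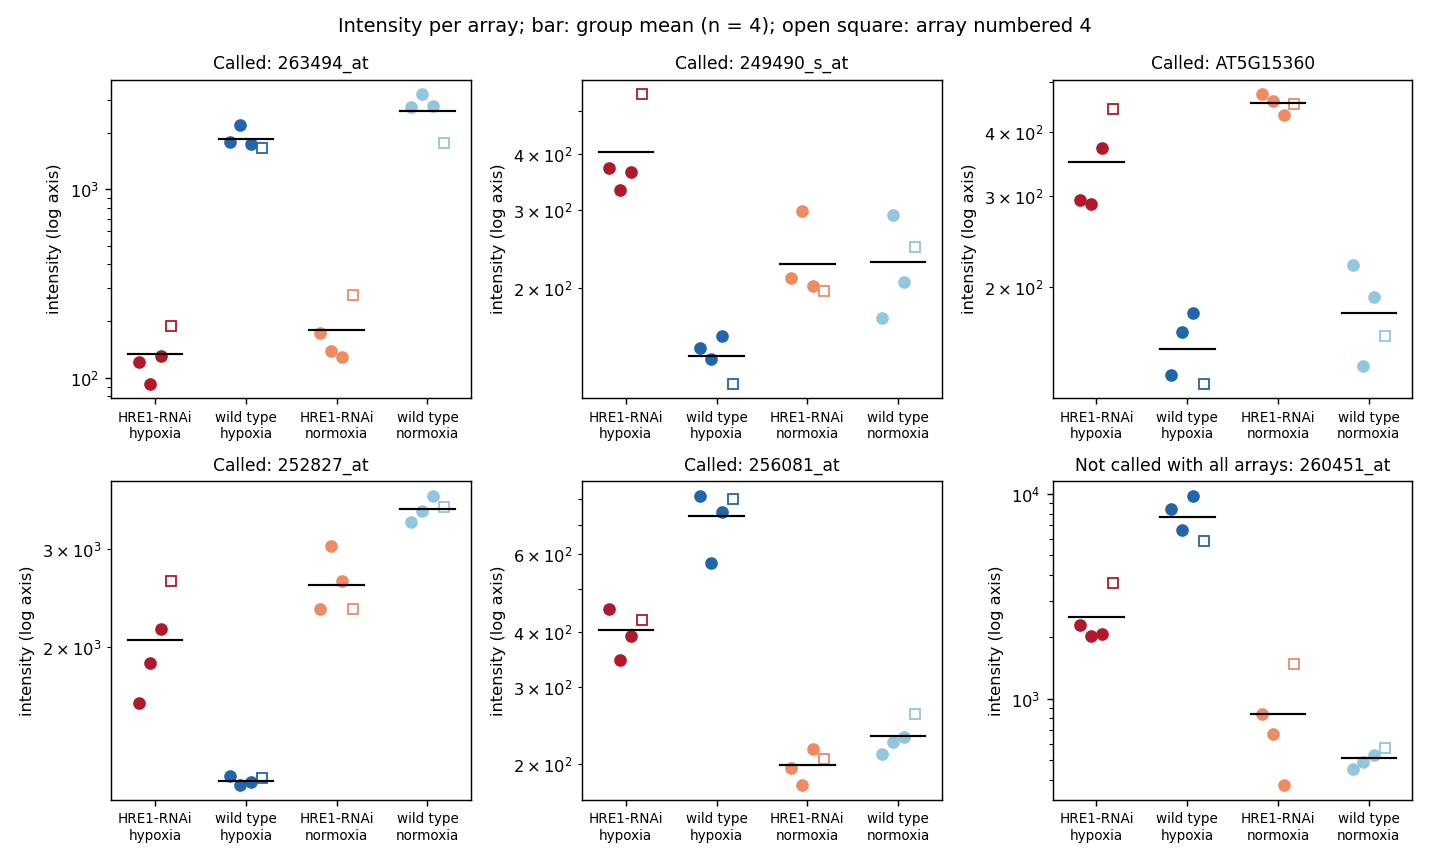
Intensity per array on a log axis for the 5 called probe sets and 260451_at, in HRE1-RNAi hypoxia, wild type hypoxia, HRE1-RNAi normoxia and wild type normoxia; bars are means of 4 arrays and open squares the arrays numbered 4. The lines are apart in both conditions for 263494_at and AT5G15360, and 260451_at reads 2021.7 to 3673.1 in HRE1-RNAi hypoxia against 5869.9 to 9759.6 in wild type hypoxia.

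Most transcripts were measured closely enough to bound the difference. The median standard error was 0.218 log2 over all probe sets, and for 79.6% the 95% interval of the difference lay within 2-fold in either direction. Among the 11373 brighter probe sets this held for 97.9%, and among the dimmer ones for 61.3%. A fitted difference of at least 1 log2 was found for 109 probe sets, of which 100 were dimmer than the median. The groups did not overlap for 585 probe sets, 2.57%, with 286 (1.26%) higher and 299 (1.31%) lower. The median difference of all probe sets was -0.01 log2.

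**Figure D2:**
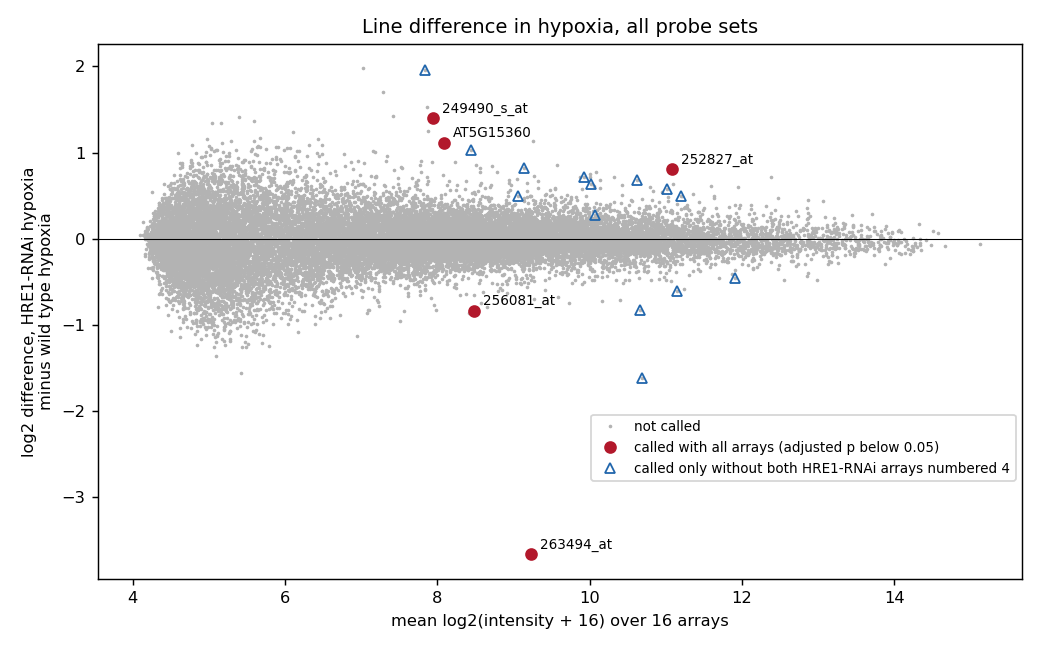
Log2 difference, HRE1-RNAi hypoxia minus wild type hypoxia, against mean log2(intensity + 16) over 16 arrays, for all 22746 probe sets. Filled circles are the 5 probe sets called with all arrays, open triangles those called only without both HRE1-RNAi arrays numbered 4, and the small points, widest at low brightness, are not called.

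The probe set 260451_at, with no gene in the tables, came next to the threshold; it was chosen after its values were seen. It read 2275.5, 2021.7, 2067.6 and 3673.1 in HRE1-RNAi hypoxia, against 8445.2, 6616.2, 9759.6 and 5869.9 in wild type hypoxia. The groups did not overlap, and HRE1-RNAi array 4 was nearest to wild type. With all arrays the difference was -1.62 ± 0.29 log2 (adjusted p = 0.082, limma). Without both HRE1-RNAi arrays numbered 4 it was -1.82 ± 0.20 log2 (adjusted p = 4.3e-05). In wild type 260451_at was 3.84 ± 0.29 log2 higher in hypoxia than in normoxia. In normoxia the order of the lines was not the same, with 377.2 to 1471.7 in HRE1-RNAi and 451.1 to 573.6 in wild type, a difference of 0.54 ± 0.29. The difference between the line effects was -2.17 ± 0.41 log2 with all arrays (adjusted p = 0.154) and -2.04 without those numbered 4 (adjusted p = 0.0034).

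Without both HRE1-RNAi arrays numbered 4, 13 probe sets were called higher and 6 lower, 0.0835% of those tested, and unadjusted p-values below 0.05 numbered 2044. The 5 calls made with all arrays were among these 19. All 19 had the same direction with all arrays, and in 7 of them no HRE1-RNAi array overlapped wild type over the 8 hypoxia arrays. Leaving out only the HRE1-RNAi hypoxia array numbered 4 gave 3 higher and 2 lower. These were not the same 5 as with all arrays, since 252827_at and 256081_at lost their calls there. Apart from AT3G16530 and AT1G34510, the genes named next fall outside the naming rules. They were called without the arrays numbered 4 and not with all arrays.

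These were 8 genes, 7 higher and 1 lower, besides probe sets with no gene. AT5G35940, a jacalin-type lectin gene, read 2480, 3203 and 3935.4 in HRE1-RNAi hypoxia arrays 1 to 3 and 1239.7 in array 4, against 1832.3, 1763, 1570.7 and 1126.5 in wild type hypoxia. Arrays 1 to 3 lay above all wild type arrays and array 4 among them (1.02 ± 0.17 log2 without the arrays numbered 4, 0.69 ± 0.27 with all). AT3G16530, a legume-type lectin gene, read 3253.1, 3991.8, 3829.3 and 2562.7, against 2204.7, 2040.7, 2603 and 1486 in wild type (0.84 ± 0.15 without, 0.71 ± 0.16 with). EXO, which encodes the extracellular growth protein EXORDIUM, read 2580.2, 3237.4, 2750 and 1825.7, against 2038.2, 1234.1, 1673.2 and 1665 (0.80 ± 0.15 without, 0.64 ± 0.16 with). In each of them array 4 was the lowest of the HRE1-RNAi arrays and overlapped wild type.

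The dirigent gene AT4G11190, from a family that guides lignan and lignin coupling, read 203, 340.8, 253 and 92.4 in HRE1-RNAi hypoxia and 138.1, 164.6, 135 and 121.5 in wild type hypoxia. Here array 4 was lower than all wild type arrays (0.83 ± 0.16 log2 without the arrays numbered 4, 0.49 ± 0.23 with all). AT3G57020, a strictosidine synthase-like gene, showed the same arrangement, at 521.6, 602.3, 550.8 and 179.5 against 345.6, 362.1, 401.7 and 289.3 (0.66 ± 0.12 without, 0.27 ± 0.28 with). GSTU20, a glutathione transferase gene, read 916, 1252.3, 1126.1 and 696.4, against 491.4, 769.4, 412.1 and 558.3 (0.98 ± 0.18 without, 0.82 ± 0.33 with). The lower gene was AT3G47510, at 1342, 1065.1, 1297.4 and 3852 in HRE1-RNAi hypoxia against 2683.8, 2161.3, 2936.1 and 2269.4 in wild type hypoxia. Array 4 was above every wild type array there (-1.01 ± 0.15 without, -0.60 ± 0.32 with). The peroxidase gene AT1G34510 completes the set and is given with its family. The part in these results of array quality, or of a different line in array 4, was not tested.

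**Figure D3:**
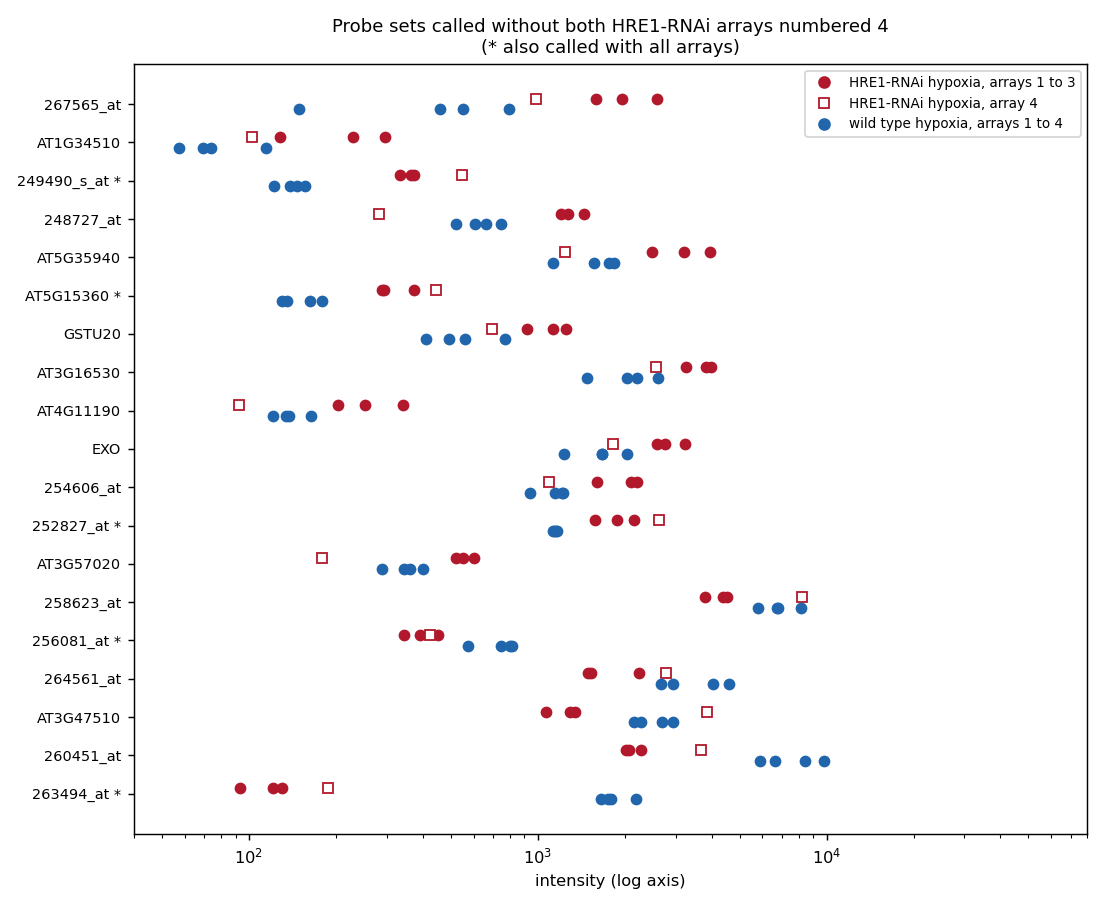
Intensity per hypoxia array on a log axis for the 19 probe sets called without both HRE1-RNAi arrays numbered 4; filled red circles are HRE1-RNAi arrays 1 to 3, open squares HRE1-RNAi array 4, and blue circles the 4 wild type arrays. Stars mark the 5 probe sets also called with all arrays; in AT3G47510, AT3G57020 and AT4G11190, for example, the open square lies beyond the wild type arrays.

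Among brighter probe sets with 1 gene, those with an unadjusted p below 0.01 (limma) and no overlap between the groups numbered 17 higher and 9 lower. Over all 22746 probe sets 217 had a p below 0.01, no more than chance would give, and the groups did not overlap for 2.57%. The 10 largest higher differences and all 9 lower ones are named here. Of these 19 genes only AT5G15360 was called, so the values of the others are descriptions. Among the higher ones were genes of the cell wall. HRGP1, for a hydroxyproline-rich glycoprotein, had a difference of 0.73 ± 0.22 log2, with 391.1 to 813.9 in HRE1-RNAi hypoxia and 269.9 to 346.5 in wild type hypoxia. AT3G22800, for a leucine-rich repeat extensin, had 0.72 ± 0.20, with 430.6 to 572 against 221.9 to 370.7. XTH16, for a xyloglucan endotransglucosylase/hydrolase that remodels the wall, had 0.67 ± 0.20, with 297.9 to 438.8 against 146.6 to 269.4. AT3G18170, for a glycosyltransferase, had 0.68 ± 0.20. In normoxia the line differences of these genes were 0.36, -0.22, -0.03 and 0.29, none of them called.

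The widest difference in the set was in AT1G26380, a berberine bridge enzyme-like oxidase gene of defence metabolism. It read 1492.6, 1427.9, 1737.9 and 3084.2 in HRE1-RNAi hypoxia, against 907.4, 517.4, 816.8 and 397.6 in wild type hypoxia. The groups were apart, with array 4 highest in HRE1-RNAi and lowest in wild type, and the difference was 1.53 ± 0.36 log2 (adjusted p = 0.638, limma). With a pseudocount of 64 it was 1.46 and called (adjusted p = 0.027); in the other 17 alternatives it was not. Its neighbour and relative AT1G26390, looked up after its values were seen, averaged 730.2 and 184.2 in HRE1-RNAi and wild type hypoxia, 1.98 ± 0.38 log2 (adjusted p = 0.141). In normoxia the line differences were -0.88 ± 0.36 for AT1G26380 and -0.45 for AT1G26390.

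CYP71B6, a cytochrome P450 gene of indole metabolism, read 3103.5 to 4536.7 in HRE1-RNAi hypoxia and 2204.1 to 2869.1 in wild type hypoxia (0.55 ± 0.13 log2). AT3G56880, for a VQ motif protein, had HRE1-RNAi arrays close together, at 963.8 to 1020.3, against 642.1 to 789.4 (0.51 ± 0.12). Both had an adjusted p of 0.469. AT5G35735, for a membrane protein with a cytochrome b561 domain, read 1092.3 to 1128.8 in arrays 1 to 3 and 2266.8 in array 4, against 793.1 to 984.9 in wild type. Its difference was 0.59 ± 0.17 log2 with all arrays and 0.34 without HRE1-RNAi hypoxia array 4.

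Among the lower ones were genes of lipid transfer-type and dehydrin proteins. AT4G12500, a lipid transfer-type gene of the AZI1 family linked to defence priming, read 282.6, 417.1, 330.5 and 445 in HRE1-RNAi hypoxia, against 754.9, 715.8, 490 and 785.7 in wild type hypoxia (-0.87 ± 0.22 log2, adjusted p = 0.638). It was called lower in normoxia, at 91.6 to 173.8 in HRE1-RNAi against 236.4 to 465.3 in wild type (-1.50 ± 0.22, adjusted p = 0.0027). AT4G22610, another lipid transfer-type gene, differed by -0.44 ± 0.14 in hypoxia and -0.52 ± 0.14 in normoxia; without the arrays numbered 4 the hypoxia value was -0.25. LTI30, for a dehydrin that protects membranes during drying and cold, differed by -0.40 ± 0.13 and -0.31 ± 0.13. For all 3 the lines did not overlap in either condition.

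For the other lower genes the lines overlapped in normoxia. AT4G33140, for a haloacid dehalogenase-like hydrolase, differed by -0.79 ± 0.19 log2 in hypoxia and -0.02 in normoxia. AT5G25450, for a subunit of the mitochondrial cytochrome bc1 complex, read 420.1 to 490.2 in HRE1-RNAi hypoxia and 574.8 to 844.2 in wild type hypoxia (-0.60 ± 0.17). AT1G70880, of the Bet v 1 family, read 134.7 to 225.8 against 235.6 to 324.6 (-0.59 ± 0.18). AT5G26270, AT1G16840 and AT5G62720 had differences of -0.68 ± 0.17, -0.36 ± 0.12 and -0.35 ± 0.12; the last encodes a membrane protein of the HPP family. In normoxia AT5G26270 differed by -0.40 ± 0.17, and the others by -0.02 to 0.21. None of these 6 was called, and whether their line effect differed between conditions was not shown (interaction adjusted p = 1.00 for each).

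The genes that hypoxia switches on in many Arabidopsis tissues differed little between the lines. Of 50 listed hypoxia core genes, 27 were measured, and 25 of them rose in wild type hypoxia against normoxia, where 17.8% of all probe sets were called and 7.2% rose. Between the lines in hypoxia none was called. The median difference was -0.06 log2, with a range of -0.43 to 0.34, beside -0.01 for all probe sets, and 12 of the 27 lay above 0. For 25 members the 95% interval lay within 2-fold; the exceptions were AT3G29970 and AT5G10040. Without the arrays numbered 4 the median was -0.02, and the highest member, AT3G29970, was at 0.18, against 0.34 with all arrays.

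Fermentation was represented by PDC2 and AT4G17260. PDC2, for pyruvate decarboxylase, the first enzyme of the ethanol branch, read 4379.9, 4991.2, 4708.2 and 2022 in HRE1-RNAi hypoxia, against 4280, 4579.5, 4463.2 and 3148.9 in wild type hypoxia. The groups overlapped and array 4 was the lowest in both lines. The difference was -0.10 ± 0.24 log2 with all arrays and 0.20 without those numbered 4. AT4G17260, for lactate dehydrogenase, read 3162.3 to 3636.7 in HRE1-RNAi and 3401.7 to 3615.6 in wild type (-0.06 ± 0.12). The sugar-to-pyruvate genes measured, 6 of 20 listed, had differences between -0.12 and 0.23. They included TPI, for triosephosphate isomerase, at 0.14 ± 0.16, and GAPC2, for cytosolic glyceraldehyde-3-phosphate dehydrogenase, at 0.09 ± 0.11.

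In oxygen sensing and signalling 2 of 11 listed genes were measured. AT3G10040 encodes HRA1, a trihelix factor that restrains the group VII factor RAP2.12. It read 2429.4, 2441, 2318 and 2010.4 in HRE1-RNAi hypoxia, against 2840.7, 2063.4, 3064 and 2556.4 in wild type hypoxia, an overlap with a difference of -0.18 ± 0.17 log2. AT3G03270 encodes HRU1, a universal stress protein, and differed by -0.17 ± 0.16.

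The 6 core genes with the largest rise in wild type hypoxia were AT5G10040, AT3G29970, CML38, AT4G24110, AT4G33560 and AT2G17850. AT5G10040 read 10044.8, 7641, 7389.9 and 8739.5 in HRE1-RNAi hypoxia, against 11026.8, 10170.4, 13098.5 and 11254.6 in wild type hypoxia. It was the one core gene whose groups did not overlap. Its standard error of 0.51 log2 also takes in the spread of its dim normoxia arrays, and the difference was -0.43 (adjusted p = 1.00; also 1.00 with only both hypoxia groups in the fit). CML38, for a calmodulin-like protein, read 5233.2 to 6235.2 and 4681 to 7882 in HRE1-RNAi and wild type hypoxia (-0.11 ± 0.23). The other 4 differed by -0.23 to 0.34, with overlapping groups. In normoxia CML38 was lower in every HRE1-RNAi array, 25.2 to 95.9 against 115.5 to 154.7, without being called (-0.97 ± 0.23, adjusted p = 0.344).

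**Figure D4:**
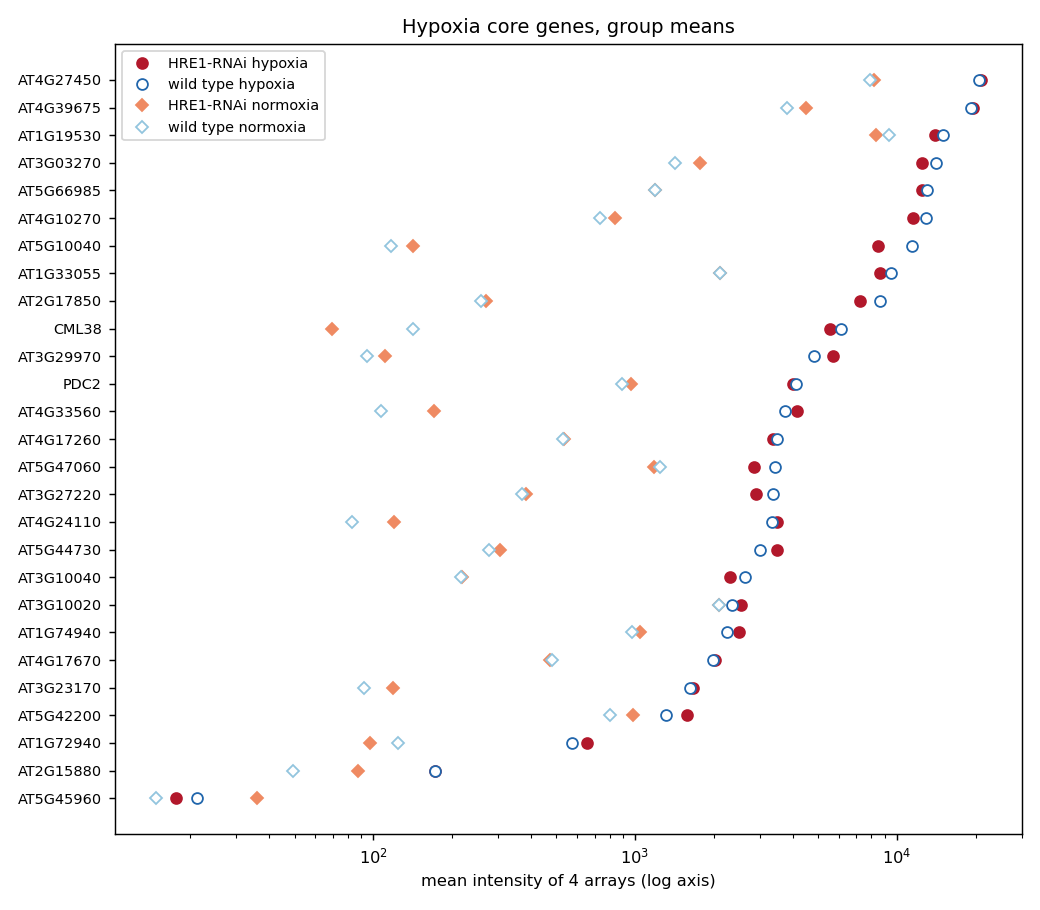
Mean intensity of 4 arrays on a log axis for the 27 measured hypoxia core genes in HRE1-RNAi hypoxia, wild type hypoxia, HRE1-RNAi normoxia and wild type normoxia. The circles of the hypoxia groups lie close together for every gene, the lowest fitted difference being -0.43 log2 (AT5G10040) and the highest 0.34 (AT3G29970).

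Class III peroxidases, secreted haem enzymes that build or loosen the wall, were the best covered family, with 54 of 73 listed genes measured. None was called with all arrays. The median difference was 0.16 log2, beside -0.01 for all probe sets, and 37 of the 54 lay above 0. At an unadjusted p below 0.05 there were 10 higher and 2 lower, where 2.29% and 2.26% of all probe sets were higher and lower. Groups did not overlap for 5 higher and 1 lower, beside 1.26% and 1.31% of all probe sets. In normoxia the family's median line difference was -0.0012 log2.

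AT1G34510 read 127.8, 228.8, 295.3 and 102.3 in HRE1-RNAi hypoxia, against 69.3, 114.7, 57.3 and 73.9 in wild type hypoxia. Array 4 overlapped wild type; the difference was 1.04 ± 0.26 log2 with all arrays (adjusted p = 0.664, limma) and 1.26 ± 0.24 without those numbered 4 (adjusted p = 0.036). AT1G14550 read 891.2, 677.1, 736.2 and 2631.5 in HRE1-RNAi hypoxia, against 644.4, 325.7, 648.8 and 147 in wild type hypoxia. Its groups were just apart, and the arrays numbered 4 were the extremes on both sides (1.42 ± 0.43). AT5G64110 read 266.5 to 410.2 against 64.9 to 254.3 (1.02 ± 0.28), and AT5G06730 237.4 to 405.6 against 149.7 to 190.5 (0.66 ± 0.20).

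Another 3 peroxidase genes are given, picked for their values. AT5G39580 read 3290.3 to 4367.8 in HRE1-RNAi hypoxia and 1675.5 to 3589.6 in wild type hypoxia (0.59 ± 0.19), and AT4G26010 2069 to 2599.5 against 1271.9 to 1959.9 (0.43 ± 0.15). The lower gene with separate groups was AT2G41480, at 93.3 to 150.3 against 157.9 to 203.5 (-0.43 ± 0.17).

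Defence proteins, with 14 of 28 listed measured, were divided, with a median line difference of -0.03 log2 in hypoxia. In normoxia it was -0.43. At an unadjusted p below 0.05, 3 were higher and 2 lower, beside 2.29% and 2.26% of all probe sets. CHI, a chitinase gene, read 737.4, 886.2, 949.7 and 1299 in HRE1-RNAi hypoxia, against 797.9, 514.5, 729.7 and 389 in wild type hypoxia; the groups overlapped (0.68 ± 0.22). OSM34, for the antifungal protein osmotin, differed by 0.32 ± 0.13. PDF2.1, a defensin gene, read 198.3 to 435.6 against 397.6 to 502.2 (-0.57 ± 0.19). AT4G22212, for a defensin-like protein, differed by -0.11 ± 0.10 in hypoxia and was called lower in normoxia at -0.67 ± 0.10 (adjusted p = 0.0027).

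Root hair genes, 4 of 15 listed measured, had a median line difference of 0.39 log2 in hypoxia and 0.27 in normoxia. EXPA18, an expansin gene of root hairs, read 248.9, 560.9, 665.9 and 415.2 in HRE1-RNAi hypoxia, against 226.4, 312.9, 221.8 and 332.6 in wild type hypoxia. HRE1-RNAi array 1 lay among the wild type arrays (0.69 ± 0.22). XTH26 was dim, at 34.4 to 78.1 against 5.4 to 60.5 (0.88 ± 0.32). GH9C1, a root hair endoglucanase gene, and EXPA7 differed by 0.08 ± 0.17 and 0.05 ± 0.24. None of the 4 was called.

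Heat shock genes, 8 of 20 measured, had a median line difference of -0.13 log2 in hypoxia and 0.23 in normoxia, and 7 of them rose in wild type hypoxia. None was called between the lines. AT5G51440, for a mitochondrial small heat shock protein, read 440.1 to 632.9 in HRE1-RNAi hypoxia and 493.6 to 821.2 in wild type hypoxia (-0.31 ± 0.16). Genes of mitochondrial alternative respiration and stress, 6 of 11 measured, had a median of 0.16. The iron uptake genes AT1G47400, for an IRONMAN peptide, and AT3G13610, for the coumarin-forming hydroxylase F6'H1, differed by 0.19 ± 0.14 and 0.17 ± 0.14.

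In the ethylene pathway EIN3, the central transcription factor, and RTE1, a regulator of the receptor ETR1, differed by 0.06 ± 0.13 and 0.18 ± 0.14 log2. AT5G61590, an ethylene response factor gene and the only 1 measured of 25 listed ERF and DREB genes, differed by -0.02 ± 0.17. The cell cycle kinase genes AUR1 and AUR2 differed by 0.13 ± 0.15 and 0.18 ± 0.17. The listed aquaporin, small RNA silencing, endodermis and stele genes were not paired with a probe set and were not analysed here.

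**Figure D5:**
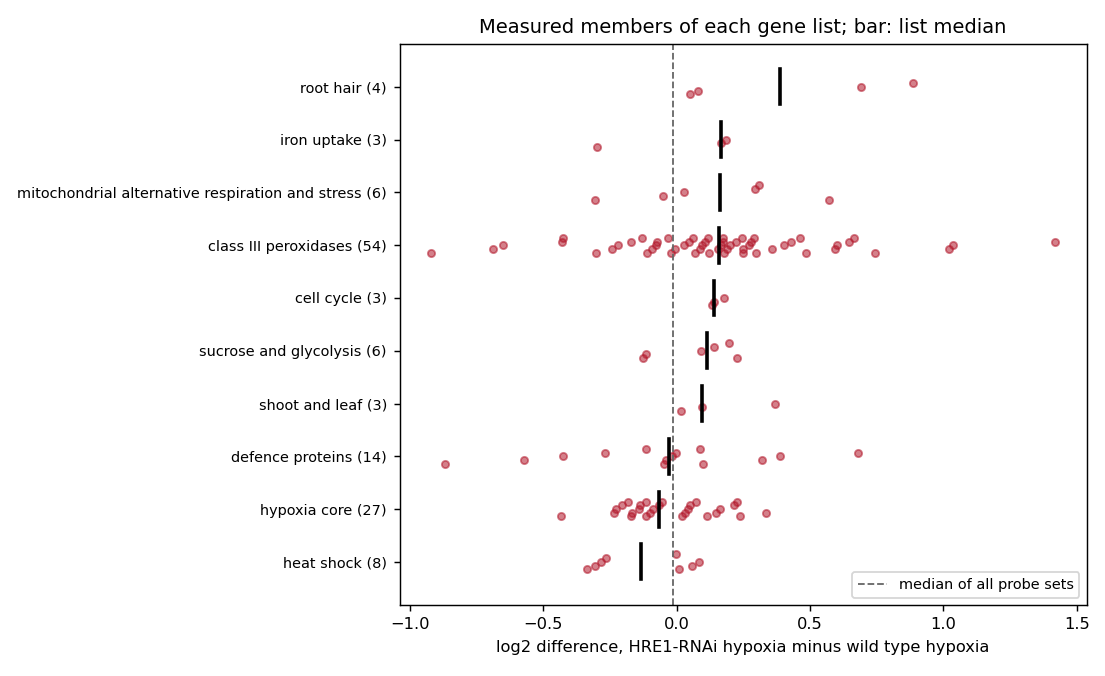
Log2 difference, HRE1-RNAi hypoxia minus wild type hypoxia, of each measured member of 10 gene lists, with the number of members in brackets. Bars mark list medians, from -0.13 for heat shock genes to 0.39 for root hair genes, and the dashed line is the median of all probe sets, -0.01; class III peroxidases spread the widest.

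The line difference in normoxia used separate arrays, and there 6 probe sets were called, 0.0264%, with 1 higher and 5 lower, and the lines did not overlap for 3.04%. Both 263494_at and AT5G15360 were called in the same direction in both conditions. Across all probe sets the line differences in hypoxia and normoxia had a Pearson correlation of 0.066, and across the brighter ones 0.132. Genes are not independent replicates. The arrays were separate but not fully independent. Deviations of same-numbered arrays correlated between hypoxia and normoxia at 0.046 to 0.695 in HRE1-RNAi and 0.017 to 0.397 in wild type. What part this has in the agreement between conditions was not tested. Of the 217 probe sets with an unadjusted p below 0.01 in hypoxia, 128 (59.0%) had the same sign in normoxia. The share with the same sign over all probe sets was not computed here. Of all 22746 probe sets, the lines were apart in both conditions for 8 higher in both, 19 lower in both and 13 with opposite directions. Taken singly, they were apart for 2.57% in hypoxia and 3.04% in normoxia.

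Among probe sets apart in both conditions, chosen after their values were seen, was SWEET11, for a sucrose exporter. It read 1045.3, 1184.7, 1138.8 and 1222.8 in HRE1-RNAi hypoxia, against 913.1, 843.2, 851.1 and 922.1 in wild type hypoxia. The difference was 0.37 ± 0.11 log2 in hypoxia and 0.58 ± 0.11 in normoxia, and neither was called (adjusted p = 0.802 and 0.075, limma). The probe set 254098_at differed by -0.48 ± 0.14 and -0.53 ± 0.14, and 250829_at by 0.42 ± 0.13 and 0.26 ± 0.13.

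The difference between the line effects in hypoxia and in normoxia was called for 4 probe sets, 0.0176%, all positive. Besides 252827_at these were AT3G16530, 262119_s_at and 251677_at. The legume-type lectin gene AT3G16530 read 248.7 to 275.3 in HRE1-RNAi normoxia and 405.4 to 517.7 in wild type normoxia, so the line difference was -0.68 ± 0.16 there and 0.71 ± 0.16 in hypoxia. The 2 effects differed by 1.40 ± 0.23 log2 (adjusted p = 0.022), and this call was lost without HRE1-RNAi hypoxia array 1, 2 or 3 or wild type hypoxia array 2, and without trend and robust moderation (adjusted p up to 0.108).

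For 262119_s_at and 251677_at the lines differed in normoxia and overlapped in hypoxia. The bright probe set 262119_s_at read 3627.5 to 4208.5 in HRE1-RNAi normoxia against 6546.9 to 8686.7 in wild type normoxia. In hypoxia it read 14872.8 to 17197.1 in HRE1-RNAi and 14302.6 to 15949 in wild type, and the effects differed by 1.09 ± 0.15 log2 (adjusted p = 0.0060). The probe set 251677_at read 439 to 559.4 against 957.5 to 1110.3 in normoxia, and 967.9 to 1269.1 against 964.1 to 1221.1 in hypoxia. Its effects differed by 1.11 ± 0.18 log2 (adjusted p = 0.022), a call lost without HRE1-RNAi hypoxia array 2 or 3 or wild type hypoxia array 2, 3 or 4, and without trend and robust moderation (adjusted p up to 0.10). Without the arrays numbered 4, 6 probe sets were called, the 4 above together with 260451_at (-2.04) and 247949_at (1.98, adjusted p = 0.046).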

How the data were processed

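RNA of seedling roots, extracted with TRIzol and labelled as biotinylated cRNA per the labels' protocols, was hybridised to 16 arrays in 4 groups of 4 (line by oxygen supply). Each deposited value is the linear intensity of a probe set in an array, made with MAS5 per the submitters' processing notes, which name no version. They ranged from 0 to 41828, and the mean without the lowest and highest 2% was 500 in every array, so scaling had been applied before deposit. Background correction by the authors is not given in the sources used here, and detection calls were not used here. Precision is limited by the number of arrays.

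The 64 control probe sets were left out of the tests. Of the 22746 tested, 13513 had a single gene in the probe table, 503 more than 1 gene and 8730 no gene; 13436 matched the reference gene table by identifier. The last 2 kinds go by their identifier. The fit used log2(intensity + 16). A mean per group was fitted to all 16 arrays with limma 3.58.1 in R 4.3.3 (trend and robust moderation, 12 residual degrees of freedom), and p-values were adjusted by Benjamini-Hochberg within each contrast. The script was tested on simulated data.

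Named are all calls of the line comparisons in hypoxia and normoxia and of their difference, and the 10 largest differences per direction among brighter single-gene probe sets with unadjusted p below 0.01 and no overlap. Up to 4 members per list by smallest p and the 6 core genes with the largest rise are also named. Names taken from the fit without both HRE1-RNAi arrays numbered 4 fall outside these rules and are marked as coming from that fit. Other names are said to have been chosen after their values were seen. In lists, a gene is represented by its brightest probe set. The members, lists and rules were chosen with earlier results of these data known, so lists are described by counts and medians without a test. Alternatives were pseudocounts of 1 and 64, quantile normalization, median centring, leaving out the dimmest 40%, the replicate number as a block, only the hypoxia groups, no trend or robust moderation, array weights, an adjusted p below 0.01, and leaving out each hypoxia array or both HRE1-RNAi arrays numbered 4.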

Additional observations from a re-analysis of the deposited data

Results flagged for a closer look

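In 7 of 156 sets of 4 arrays examined (4.49%), 1 array stood far from the other 3 by Dixon's test; chance gives about 1 in 20. HRE1-RNAi hypoxia array 4 was that array in 5 of them. It was the highest for AT5G35735 (2266.8) and AT5G06730 (405.6), and the lowest for AT5G09570 (98.6), EIN3 (1566.3) and PDC2 (2022.0). In wild type hypoxia, array 3 was the highest for AT5G44730 (3244.3), and array 2 for NDB4 (5.6), a level under the pseudocount.

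The line effect in hypoxia differed from that in normoxia by limma's interaction test in 4 probe sets: by 1.27 log2 in 252827_at, 1.40 in AT3G16530, 1.09 in 262119_s_at and 1.11 in 251677_at. In the first pair the lines were in opposite order in the 2 conditions, and in the other pair they were apart in normoxia and overlapped in hypoxia.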

How the results depend on the processing

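With all arrays 3 probe sets were called higher and 2 lower in HRE1-RNAi hypoxia. Higher calls numbered 6 with a pseudocount of 64, 5 with array weights, 1 with only the hypoxia groups and 13 without both HRE1-RNAi arrays numbered 4. Lower calls numbered 1 without trend and robust moderation, 1 at an adjusted p below 0.01 and 6 without both arrays numbered 4. Leaving out 1 hypoxia array gave 1 to 3 higher (1 without HRE1-RNAi array 3 or wild type array 1 or 4) and 1 to 2 lower (1 without HRE1-RNAi array 1, 2 or 3 or wild type array 1, 3 or 4). In normoxia (1 higher, 5 lower) there were 8 lower with a pseudocount of 1, 2 higher with quantile normalization, 2 higher without the dimmest 40%, 2 higher and 16 lower with weights, and 5 higher and 12 lower without both arrays numbered 4. For the difference of line effects (4 positive, 0 negative, with 322 negative at an unadjusted p below 0.05 in limma) there was 1 negative with median centring, 2 with weights, 1 without both arrays numbered 4 and 1 positive at an adjusted p below 0.01. Leaving out 1 array gave 1 to 5 positive (2 without HRE1-RNAi or wild type array 2, 1 without HRE1-RNAi array 3) and 0 to 1 negative. With the replicate number as a block there were 4 higher and 2 lower in hypoxia, 1 and 5 in normoxia and 5 and 0 for the difference. Deviations of same-numbered arrays correlated at -0.323 to 0.315 between the lines in hypoxia (1 of 4 pairs above 0.1), at 0.046 to 0.695 between hypoxia and normoxia in HRE1-RNAi and at 0.017 to 0.397 in wild type (3 of 4 pairs above 0.1 in each, and the same 3 matched their own number best). As not every pair was above 0.1 in any of these, the main fit treated the arrays as unpaired. It thus leaves out the deviations that most same-numbered arrays of a line shared across conditions. This bears on the difference of line effects and on hypoxia against normoxia. The block above joined both lines by number, and a block of line by number was not fitted. List members called numbered 0, and 1 without both arrays numbered 4 (AT1G34510).

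Both 263494_at and 249490_s_at were called in all 18 alternatives, AT5G15360 in 14 and 260451_at in 6 (adjusted p 4.3e-05 to 0.379). No list median moved by more than its replicate SD. Signs turned only for genes whose difference with all arrays was smaller than its standard error, the largest being -0.26 ± 0.33 for AT1G54050. PDC2 turned to 0.054 with weights and 0.20 without both HRE1-RNAi arrays numbered 4, and EXPA7 to -0.080 without these. Leaving out 1 array gave ranges of -0.56 to 0.047 for AT1G54050, -0.015 to 0.15 for AT4G24110, -0.14 to 0.091 for AT5G61590, -0.23 to 0.017 for CML38, -0.12 to 0.37 for EXPA7, -0.0058 to 0.24 for GH9C1, -0.0084 to 0.15 for LHCB4.1, -0.23 to 0.20 for PDC2, -0.016 to 0.23 for PRL and -0.13 to 0.11 for RCA. The cause of these moves was not tested. The 95% interval lay within 2-fold for 61.3% of the dimmer probe sets, against 97.9% of the brighter ones.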
